A study of Homo sapiens with 8 samples.

Results

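The immediate early and AP-1 genes are 10 genes, FOS, FOSB, FOSL1, JUN, JUNB, JUND, ATF3, EGR1, IER2 and DUSP1, listed by name and not by a threshold on their values, though with earlier results of these data known. They were taken by gene name from the 2 deposited tables, which list 34164 genes between them. All 10 were found in both tables. Kyse510, an established cell line of human esophageal squamous cell carcinoma (ESCC), was the source of 8 libraries, each from a condition of its own. The pharmacological arm had vehicle (DMSO, labelled untreated), SP2509 (an inhibitor of the histone demethylase LSD1) at 7 µM, UNC0642 (an inhibitor of the histone methyltransferase G9a) at 7 µM, or the 2 inhibitors together. The inhibitors were given for 2 days, and the labels give no time for vehicle. The dose of each compound in the combination was not stated separately. In the genetic arm, the cells carried a doxycycline (Dox)-inducible hairpin against LSD1 (shLSD1) or G9a (shG9a), had gone through 14 days of puromycin selection, and either stayed without Dox or had Dox for 2 days. All 4 genetic libraries therefore share the vector and the selection. Cells without a targeting hairpin that received Dox were not analysed here, so an effect of Dox itself cannot be told apart from the knockdown. The lines were described as stable clones, and how many clones each held is not stated in the sources used here. A figure legend of the study names cells with a non-targeting hairpin as the control, whereas the labels give the same line without Dox, and the labels were followed.

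Immediate early genes are transcribed within minutes of a growth factor, serum or stress signal, without the need for new protein, and many of their mRNAs decay as quickly. Several of them encode the subunits of AP-1, a dimeric transcription factor in which a JUN protein pairs with another JUN protein, a FOS protein or an ATF protein. In squamous epithelium AP-1 takes part in proliferation, wound repair and differentiation. MAP kinases drive most of these genes, and DUSP1, a phosphatase that removes the activating phosphates of MAP kinases, is itself an immediate early gene and closes a feedback loop.

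Estimated library totals ranged from 15662035 to 17889466 reads. KDM1A, which encodes LSD1, had 26.0 FPKM without and 6.29 FPKM with Dox in the shLSD1 line, and EHMT2, which encodes G9a, had 7.85 and 4.76 FPKM in the shG9a line. Of 8 markers of squamous epithelium, 7 or 8 reached 1 FPKM in every library, but the one that did not was not always the same. SOX2 had 18.3 FPKM with vehicle, 0.313 with SP2509 and 0.636 with both inhibitors. KRT6A was under 1 FPKM with vehicle, in both shLSD1 libraries and in the shG9a line without Dox. Among 8 markers of other cells, PTPRC of leukocytes and CD68 of macrophages stayed at or below 0.0522 FPKM throughout, whereas COL1A1 (2.92 to 5.36 FPKM) and CDH5 (3.28 to 14.0 FPKM) were detected in all 8 libraries. COL3A1 had 1.50 FPKM with SP2509, and CD3E and ALB had no values in the pharmacological arm. Genes of the mitochondrial genome took 5.43% to 11.3% of the reads, with the lowest share in the combination library and the highest in the shG9a library with Dox. The part of these differences in the results was not tested.

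The proximal promoters of some of these genes hold well-known response elements, and 3 of them are shown here, the paired serum response boxes of EGR1 and the element that DUSP1 and JUND have in common. Promoter windows from RefSeq (GRCh38.p14), running from 250 bases before to 50 bases after a start site, were available for 9 of the 10 genes (all but FOSL1), with 2 windows for ATF3. The following stretches are given 5′ to 3′ on the strand of the gene, with the motif in capitals. In EGR1 the capitals mark CArG boxes (CC, then 6 A or T, then GG), the core of the serum response element. In DUSP1 and JUND they mark the cyclic AMP response element, TGACGTCA, which ATF and CREB proteins bind.
EGR1, chr5:138465349-138465428, plus strand: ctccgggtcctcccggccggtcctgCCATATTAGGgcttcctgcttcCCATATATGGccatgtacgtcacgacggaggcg
DUSP1, chr5:172771276-172771355, minus strand: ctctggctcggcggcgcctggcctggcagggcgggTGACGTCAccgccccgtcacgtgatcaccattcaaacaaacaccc
JUND, chr19:18281778-18281857, minus strand: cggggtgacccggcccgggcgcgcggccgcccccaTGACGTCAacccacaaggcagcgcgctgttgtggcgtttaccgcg

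Both strands were searched. CArG boxes occurred in the EGR1 window only, at 105 and 83 bases before the start, and in 1.29% of all 35116 windows. The cyclic AMP response element occurred in the windows of DUSP1 (125 bases before the start) and JUND (200 bases before the start), and in 1.85% of all windows. The AP-1 site TGANTCA was in no member's window and in 7.71% of all windows. The EGR site GCGNGGGCG was found in EGR1 alone among the members and in 9.43% of all windows, and the ATF4 composite site TGATGNAA in ATF3 alone and in 3.62% of all windows. A motif that is absent from these windows may lie elsewhere.

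Levels are given as FPKM, the fragments counted on a gene per kilobase of its length, scaled to the fragments of the library, a scale on which genes can be compared with each other. A ratio is the FPKM of a treated library over that of its control, and its 95% interval is an exact (Clopper-Pearson) binomial interval that covers counting error only. A gene was called up or down when (FPKM + 1) changed by at least 1.3-fold, at least 1 of the 2 libraries reached 1 FPKM, and the reads of both libraries differed at an unadjusted p below 0.05 (exact binomial, two-sided). Such a p speaks of the libraries only, because no condition was repeated. All 10 members passed the FPKM filter in all 5 comparisons, FOSB in each of them only through the library in which it was higher. The nearest thing to a repeat is the pair of uninduced lines, which carry different hairpins. Between shG9a and shLSD1 without Dox, 0 of the 10 genes were called, against 3.50% of all 12449 genes tested, and the log2 differences of the 10 genes ranged in size from 0.0198 (FOS) to 0.28 (FOSL1).

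In the pharmacological arm nearly all of these genes were higher than with vehicle, and in the genetic arm most were lower with Dox than without it. With SP2509, 8 of 10 were called up and 0 down, against 18.1% up and 37.4% down among the 13342 genes tested. With UNC0642, 8 were called up and 0 down, against 15.8% and 14.0% of 13244 genes. With both inhibitors all 10 were called up, against 28.8% up and 29.1% down of 13907 genes. Dox in the shLSD1 line was accompanied by 6 genes down and 1 up, against 10.4% down and 22.7% up of 12970 genes. Dox in the shG9a line was accompanied by 9 down and 1 up, against 15.8% down and 29.9% up of 13080 genes. The median log2 fold change of the 10 genes was 2.84 with SP2509, 0.74 with UNC0642, 2.23 with the combination, -1.37 in the shLSD1 line and -2.20 in the shG9a line, while the median of all genes tested was -0.21, -0.01, -0.02, 0.13 and 0.18, respectively. The 3 inhibitor comparisons share the vehicle library. At a threshold of 2-fold, 4 genes were called up with UNC0642 in place of 8 and 8 with the combination in place of 10 (JUNB and JUND lost). In the shG9a line 6 were then called down in place of 9 (JUNB, JUND and EGR1 lost), and IER2 was no longer called up in either line with Dox.

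**Figure D1:**
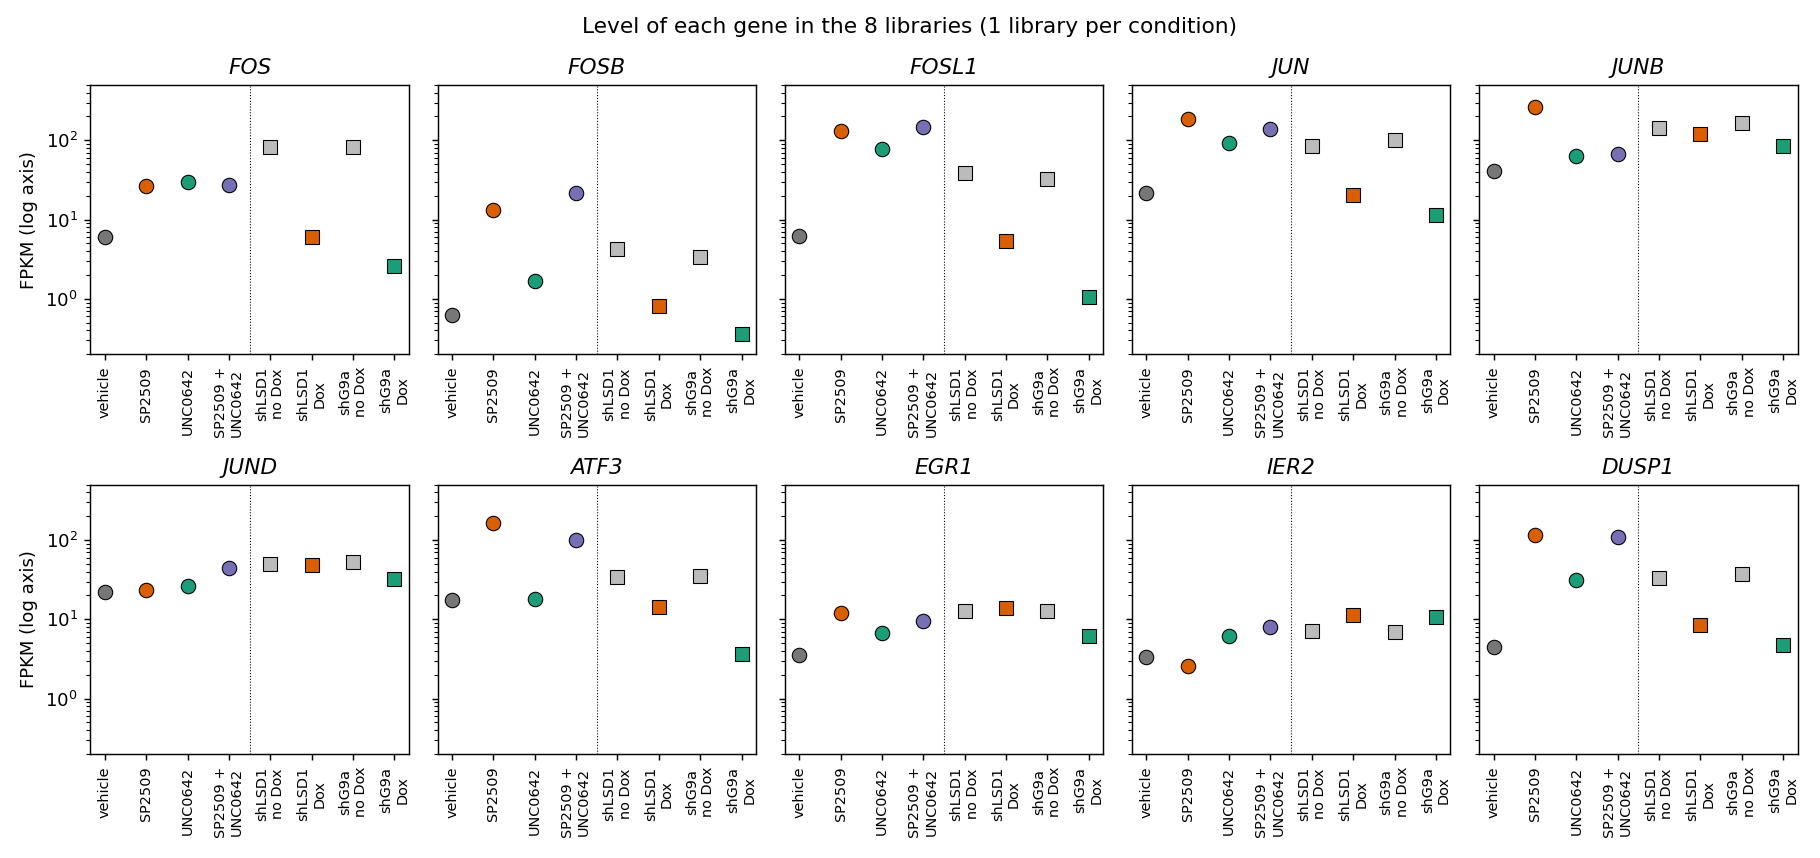
Level of each of the 10 genes in FPKM on a log axis in the 8 libraries, with circles for the inhibitor libraries and squares for the shRNA libraries, each point being 1 library. In the panels of FOS, FOSB, FOSL1, JUN and DUSP1 the 3 inhibitor-treated libraries lie above vehicle and the libraries with Dox lie below both lines without Dox, whereas in the JUND panel the 8 libraries span 22.1 to 52.3 FPKM.

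FOS (ENSG00000170345, chromosome 14 from 75278774 to 75282230, GRCh38) encodes the founding FOS subunit, which cannot dimerize with itself and pairs with JUN proteins. It had 6.11 FPKM in the vehicle library, 26.9 under SP2509, 29.8 under UNC0642 and 27.5 with both. The 3 treated libraries are close to each other and all above vehicle, with ratios of 4.40 (95% interval 3.89 to 4.99), 4.88 (4.32 to 5.52) and 4.50 (3.98 to 5.10). The combination and SP2509 alone did not differ beyond counting error (ratio 1.02, 0.951 to 1.10, exact binomial p = 0.55). In the genetic arm FOS had 82.3 and 83.4 FPKM in the uninduced shLSD1 and shG9a lines, and 5.96 and 2.60 FPKM with Dox. It was 13.8-fold lower (12.4 to 15.5) in the shLSD1 line and 32.0-fold lower (27.2 to 38.1) in the shG9a line. By log2 fold change these were the 3rd lowest of 12970 genes and the 5th lowest of 13080 genes.

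FOSL1 (ENSG00000175592, chromosome 11 from 65892049 to 65900573) encodes FRA1, a FOS protein that lacks a strong activation domain and is often abundant in invasive carcinoma cells. It had 6.19 FPKM in the vehicle library, 132 under SP2509, 78.9 under UNC0642 and 148 with both inhibitors. Each inhibitor library is at least an order of magnitude above vehicle, with ratios of 21.3 (18.4 to 24.8), 12.7 (11.0 to 14.9) and 24.0 (20.7 to 27.9), and the rank of FOSL1 among increases was 11, 7 and 13, respectively. In the shLSD1 line it had 39.3 FPKM without and 5.33 with Dox, 7.37-fold lower (6.29 to 8.67), and in the shG9a line 32.1 and 1.07 FPKM, 29.9-fold lower (21.4 to 43.2). The last value rests on 35 reads.

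FOSB (ENSG00000125740, chromosome 19 from 45467995 to 45475179) encodes another FOS protein and was the least abundant of the 10 genes with vehicle, at 0.632 FPKM or 55 reads. It reached 13.4 FPKM with SP2509, 1.68 with UNC0642 and 22.0 with both. The increase with UNC0642 was the smallest, at a ratio of 2.66 (1.95 to 3.67), and that with the combination the largest, at 34.8 (26.6 to 46.3). The combination was 1.64 times SP2509 alone (1.53 to 1.76). FOSB had 4.25 FPKM without and 0.823 with Dox in the shLSD1 line, and 3.39 and 0.364 in the shG9a line, 5.16-fold (4.06 to 6.65) and 9.30-fold (6.55 to 13.6) lower. ERCC1, which had at most 10.1 FPKM, overlaps FOSB on the other strand, and whether the counting used strand is not stated in the sources used here.

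JUN (ENSG00000177606, chromosome 1 from 58780788 to 58784327) encodes the main activating JUN subunit and is a classical target of the JNK kinases and of its own protein. It had 21.9 FPKM in the vehicle library, 187 under SP2509, 92.0 under UNC0642 and 139 with the combination, so that the combination lay between the single inhibitors. The ratios to vehicle were 8.53 (8.04 to 9.05), 4.20 (3.94 to 4.47) and 6.36 (5.99 to 6.76). JUN fell in the shLSD1 line, from 84.3 to 20.2 FPKM (4.17-fold lower, 3.92 to 4.44) and from 102 to 11.4 FPKM in the shG9a line (8.93-fold lower, 8.26 to 9.67).

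JUNB (ENSG00000171223, chromosome 19 from 12791496 to 12793315) encodes a JUN protein that can oppose JUN in cell cycle control. With vehicle it had 41.5 FPKM, with SP2509 266, with UNC0642 64.3 and with both 66.4. The level with SP2509 stands apart from the other 3, at 6.41 times vehicle (6.03 to 6.82), and JUNB was 4.01-fold lower (3.82 to 4.21) in the combination than with SP2509 alone. The combination and UNC0642 alone did not differ beyond counting error (ratio 1.03, 0.971 to 1.10). In the shLSD1 line JUNB had 144 FPKM without and 121 with Dox, a change below the fold threshold. In the shG9a line it fell from 165 to 84.6 FPKM (1.95-fold lower, 1.86 to 2.04). HOOK2, with at most 23.2 FPKM, overlaps JUNB on the other strand.

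JUND (ENSG00000130522, chromosome 19 from 18279760 to 18281622) encodes the JUN protein that is expressed most evenly in resting cells. It had 22.1 FPKM in the vehicle library, 23.6 under SP2509, 26.4 under UNC0642 and 44.1 with both. Neither single inhibitor moved it past the fold threshold, with ratios of 1.07 (0.960 to 1.19) and 1.19 (1.07 to 1.32), whereas the combination did, at 1.99 (1.81 to 2.19). JUND had 50.2 FPKM without and 48.2 with Dox in the shLSD1 line (exact binomial p = 0.268). In the shG9a line it fell from 52.3 to 32.2 FPKM (1.62-fold lower, 1.50 to 1.76). Its promoter window shares the cyclic AMP response element shown above with DUSP1.

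ATF3 (ENSG00000162772, chromosome 1 from 212565334 to 212620777) encodes a stress-induced bZIP protein that dimerizes with JUN proteins and often represses. With vehicle it had 17.4 FPKM, with SP2509 162, with UNC0642 18.1 and with both 100. The libraries with SP2509 are high and the other 2 are low: the ratio was 9.34 (8.78 to 9.95) with SP2509 and 5.78 (5.42 to 6.17) with the combination, but 1.04 (0.959 to 1.13, exact binomial p = 0.347) with UNC0642. In the genetic arm ATF3 fell in both lines, from 34.2 to 14.1 FPKM with shLSD1 (2.42-fold lower, 2.25 to 2.61) and from 35.8 to 3.66 FPKM with shG9a (9.77-fold lower, 8.59 to 11.2).

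EGR1 (ENSG00000120738, chromosome 5 from 138465490 to 138469315) encodes a zinc finger transcription factor that responds to serum through the CArG boxes shown above. It had 3.56 FPKM in the vehicle library, 12.0 under SP2509, 6.77 under UNC0642 and 9.48 with both. The ratios of 3.36 (2.84 to 3.99), 1.90 (1.59 to 2.29) and 2.66 (2.24 to 3.18) are smaller than those of FOS, whose promoter is also a textbook serum response target. In the shLSD1 line EGR1 had 12.7 FPKM without and 13.7 with Dox, which did not differ beyond counting error (exact binomial p = 0.116). In the shG9a line it fell from 12.9 to 6.22 FPKM (2.08-fold lower, 1.82 to 2.37).

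IER2 (ENSG00000160888, chromosome 19 from 13150415 to 13154908), an immediate early gene that encodes a small nuclear protein, departed from most others with SP2509 and with Dox. With UNC0642 and with both inhibitors it was called up, as most members were. It had 3.35 FPKM in the vehicle library, 2.61 under SP2509, 6.13 under UNC0642 and 8.06 with both. With SP2509 it was the single member below vehicle, at a ratio of 0.781 (0.619 to 0.985), which stayed under the fold threshold. It was also the single member called up with Dox, from 7.21 to 11.2 FPKM for shLSD1 (ratio 1.55, 1.37 to 1.77) and from 6.93 to 10.6 FPKM in the shG9a line (ratio 1.53, 1.34 to 1.75).

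DUSP1 (ENSG00000120129, chromosome 5 from 172768090 to 172771195) had 4.52 FPKM in the vehicle library, 115 under SP2509, 31.1 under UNC0642 and 110 with both. The libraries with SP2509 lie together and well above UNC0642 alone, which is itself above vehicle. The ratios were 25.5 (21.6 to 30.3) with SP2509, 6.87 (5.77 to 8.23) with UNC0642 and 24.3 (20.5 to 28.9) with both. DUSP1 ranked 8th among the increases with SP2509, 29th with UNC0642 and 14th when they were combined. With Dox it fell in the shLSD1 line, from 32.9 to 8.57 FPKM (3.84-fold lower, 3.38 to 4.37) and from 37.1 to 4.80 FPKM in the shG9a line (7.73-fold lower, 6.57 to 9.13). An antisense gene, AC022217.3, overlaps DUSP1 and had at most 1.01 FPKM.

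**Figure D2:**
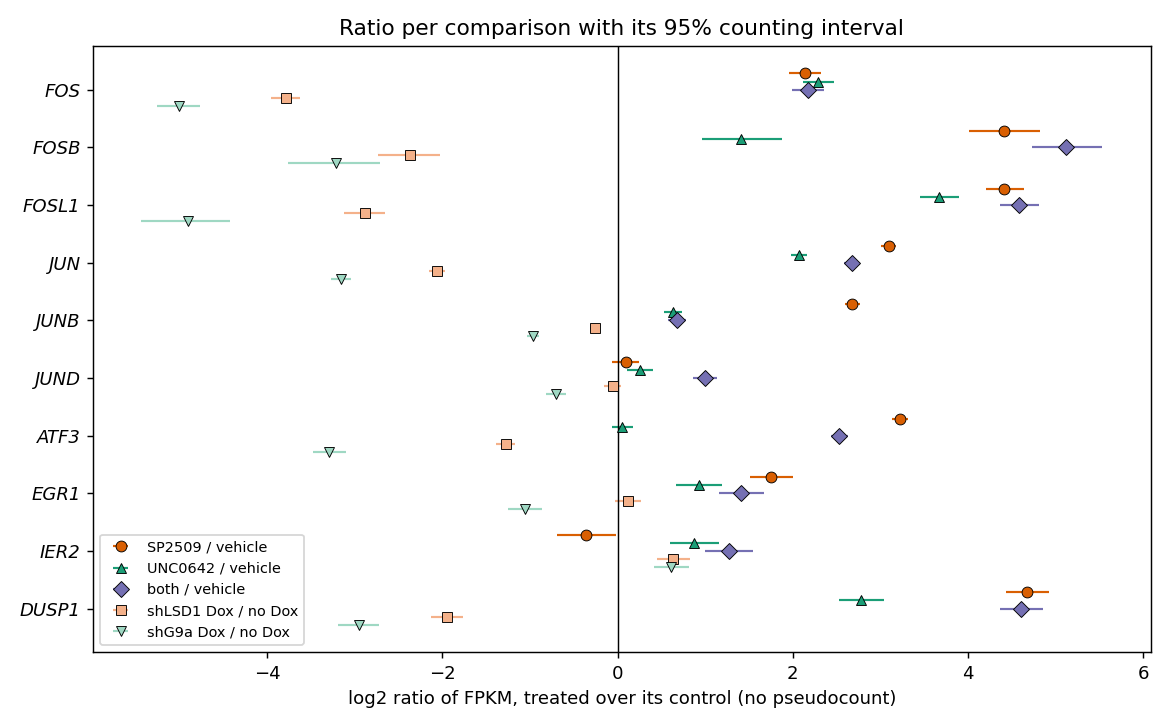
Log2 ratio of FPKM (treated over control, no pseudocount) of the 10 genes in the 5 comparisons, with bars for the 95% counting interval. The points of the inhibitors lie to the right and those of the knockdowns to the left of 0 for FOS, FOSB, FOSL1, JUN, JUNB, ATF3 and DUSP1, with ATF3 near 0 for UNC0642 (ratio 1.04), while both knockdown points of IER2 lie to the right of 0.

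The inhibitor and the knockdown of the same enzyme can be set side by side, since these comparisons share no library. For LSD1, 6 of the 10 genes (FOS, FOSB, FOSL1, JUN, ATF3 and DUSP1) were called up with SP2509 and down with Dox in the shLSD1 line, as were 5.30% of the 11769 genes tested in both comparisons. For G9a, 7 of the 10 (FOS, FOSB, FOSL1, JUN, JUNB, EGR1 and DUSP1) were called up with UNC0642 and down with Dox in the shG9a line, as were 5.46% of 11906 genes. At a threshold of 2-fold in both comparisons, the 6 genes were still called in opposite directions for LSD1, but 4 (FOS, FOSL1, JUN and DUSP1) for G9a. No share of all genes is given for opposite calls at 2-fold, so how usual these counts are at that threshold is not known. None of the 10 was called down by an inhibitor. IER2 was called up with UNC0642 and in the shG9a line, the single member called in the same direction by the inhibitor and the knockdown of an enzyme.

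The controls of the arms started from different levels. The lengths inferred here for the 10 genes were the same in both tables. A reference length, or that of the other table, was preferred when they were inferred, so this equality is partly built in. The arms were processed as separate tables, which may differ in ways not examined here, and no test was made between them. Over 13065 genes, the median log2 ratio of the uninduced mean to vehicle, in (FPKM + 1), was -0.149. Every member was higher in both uninduced lines than with vehicle. The mean of the uninduced lines was 13.6 times the vehicle level for FOS, 7.75 times for DUSP1, 6.04 times for FOSB, 5.76 times for FOSL1 and 4.25 times for JUN, and ranged down to 2.01 times for ATF3. On the (FPKM + 1) scale, 8 of the 10 genes were at least 2-fold higher in the uninduced lines, as were 7.04% of 13065 genes. With Dox, the shLSD1 line had levels near those of vehicle for FOS (0.975 times vehicle), JUN (0.923 times), FOSL1 (0.860 times) and ATF3 (0.812 times), and was above vehicle for EGR1 (3.86 times), IER2 (3.34 times), JUNB (2.91 times), JUND (2.18 times), DUSP1 (1.90 times) and FOSB (1.3 times). The shG9a line with Dox was below vehicle for FOSL1 (0.173 times), ATF3 (0.210 times), FOS (0.426 times), JUN (0.522 times) and FOSB (0.576 times), and above it for IER2 (3.17 times), JUNB (2.04 times), EGR1 (1.75 times), JUND (1.45 times) and DUSP1 (1.06 times).

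The 2 lines were also compared with each other in the presence of Dox. FOS was 2.29-fold lower (1.88 to 2.80) in shG9a with Dox than in shLSD1 with Dox, FOSL1 4.97-fold lower (3.45 to 7.37), ATF3 3.86-fold lower (3.36 to 4.45), EGR1 2.21-fold lower (1.94 to 2.52) and JUN 1.77-fold lower (1.61 to 1.94). IER2 did not differ beyond counting error (1.06-fold lower, 0.940 to 1.19, exact binomial p = 0.364).

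The makeup of the FOS family shifted with its total. FOSL2, the remaining FOS family gene, was not a member of the list. It rose from 33.5 FPKM with vehicle to 48.8, 58.0 and 60.1 with SP2509, UNC0642 and both. The 4 FOS family genes summed to 46.5 FPKM with vehicle, of which FOSL2 made up 72.2% and FOSL1 13.3%. With SP2509 the sum was 221 FPKM, with FOSL1 at 59.7% and FOSL2 at 22.1%. The share of FOSL1 was 46.8% under UNC0642 and 57.5% under both. In the uninduced shLSD1 and shG9a lines the sums were 180 and 176 FPKM, and FOS had the largest share, 45.7% and 47.5%. With Dox the sums were 45.3 and 42.2 FPKM, and FOSL2 made up 73.2% and 90.4%. FOSL1 thus had the largest share in the 3 inhibitor-treated libraries, FOS in the uninduced lines, and FOSL2 with vehicle and with Dox.

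Among the JUN family, JUNB had the largest share with vehicle (48.5% of 85.6 FPKM) and with SP2509 (55.8% of 477 FPKM). JUN had the largest share with UNC0642 (50.4% of 183 FPKM) and with both inhibitors (55.8% of 250 FPKM). In the shLSD1 line the share of JUN went from 30.3% without to 10.7% with Dox, and in the shG9a line from 32.0% to 8.91%, while JUNB made up 63.8% and 66.0% of the family with Dox.

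**Figure D3:**
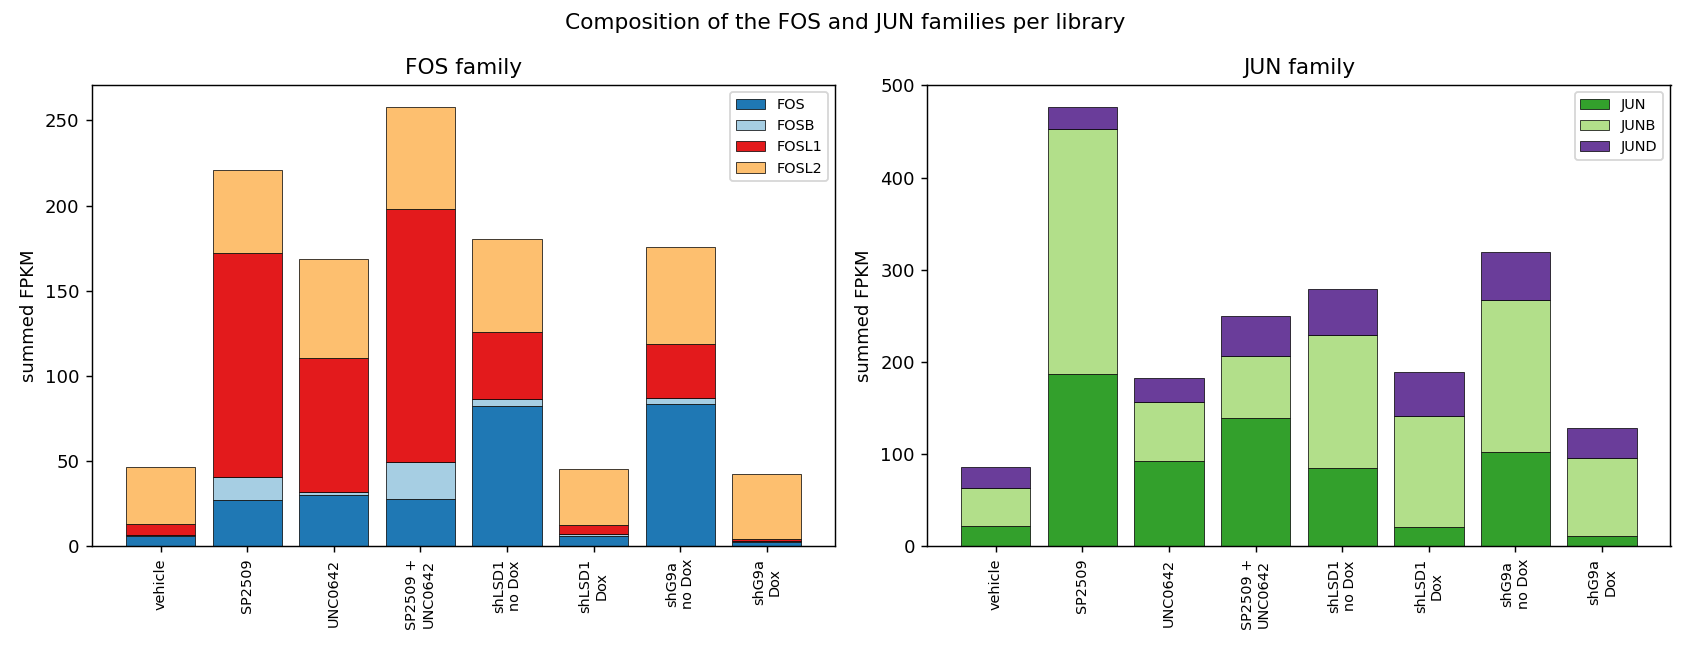
Summed FPKM of the FOS family (left) and the JUN family (right) in each of the 8 libraries, with stacked bars for the single genes. The FOS family sum is 46.5 FPKM with vehicle and 258 FPKM with both inhibitors, and 180 and 176 FPKM in the lines without Dox against 45.3 and 42.2 FPKM with Dox.

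For the lists that follow, the shares of all genes called up and down are those given above for the 10 members. A gene that passed the FPKM filter only through its higher library could differ in 1 direction only, so the counts that shift most are also given over genes that reached 1 FPKM on both sides of a comparison. The shares of all genes rest on the filter being met in either library. They are therefore not a background for these narrower counts, for which no such share is given.

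Other immediate early genes, 35 in number, were also called mostly up in the pharmacological arm, and more often down than up in the genetic arm. With SP2509, 29 passed the FPKM filter, 27 were called up and 0 down, and the median log2 fold change of those that passed was 1.56 (all genes -0.21). With UNC0642 16 were called up and 0 down, with a median of 0.57, and with the combination 29 were up and 1 (NFKBIA) down, with a median of 1.42. With shLSD1, 17 were down and 6 up (median -0.68, all genes 0.13), and in the shG9a line 22 were down and 4 up (median -0.92, all genes 0.18). Of those with at least 1 FPKM in both libraries, 25 of 27 were up with the combination, and 17 of 25 were down in the shG9a line. The largest changes were those of CTGF and CYR61, matricellular proteins that are also targets of YAP, and of TNFAIP3, an inhibitor of NF-kB signalling. CTGF had 5.90 FPKM with vehicle and 277, 22.1 and 48.6 with SP2509, UNC0642 and both, and it fell with the LSD1 hairpin (81.2 to 3.32 FPKM) and with the G9a hairpin (90.3 to 0.741 FPKM). CYR61 had 8.89 FPKM in the vehicle library, 439 under SP2509, 30.5 under UNC0642 and 105 with the combination. TNFAIP3 had 27.9 FPKM in the vehicle library, 365 under SP2509, 101 under UNC0642 and 68.8 with both. As with JUNB, the level of these 3 genes in the combination was below that with SP2509 alone.

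The 9 other MAP kinase phosphatases were also called mostly up in the pharmacological arm, with 6, 6 and 7 up and 0, 1 and 1 down with SP2509, UNC0642 and both. With shLSD1, 2 were up and 3 down, and in the shG9a line 0 were up and 7 down, or 4 of 6 with at least 1 FPKM in both libraries. DUSP5, which dephosphorylates nuclear ERK, had 12.0 FPKM in the vehicle library, 191 under SP2509, 52.6 under UNC0642 and 116 with both, and fell with Dox to 19.7 from 91.9 FPKM (shLSD1) and to 11.2 from 94.1 FPKM (shG9a). DUSP4 rose from 5.08 FPKM with vehicle to 48.9, 27.5 and 33.3 FPKM with SP2509, UNC0642 and both. It had 9.77 FPKM without and 8.90 with Dox in the shLSD1 line, and fell in the shG9a line, from 9.69 to 0.867 FPKM. DUSP10, which acts on JNK and p38, rose from 1.73 FPKM with vehicle to 17.5, 7.92 and 23.9 FPKM.

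Of 27 genes for the MAP kinases, their activating kinases, SRF and the ELK factors, which act upstream of the members, 25, 24 and 24 passed the FPKM filter with SP2509, UNC0642 and both. Of these 7, 7 and 7 were called up and 6, 0 and 6 down, which with both inhibitors is close to the share of all genes, and their median log2 fold change was 0.01, 0.15 and -0.02. In the shLSD1 and shG9a lines 3 and 2 were up and 4 and 5 were down, with medians of 0.05 and 0.03. MAP2K3, a kinase that activates p38, rose from 8.24 FPKM with vehicle to 23.5, 19.5 and 54.9 FPKM. MAP2K1, which encodes MEK1, rose from 12.4 to 19.8, 20.6 and 44.1 FPKM. MAP3K5, which encodes the stress kinase ASK1, had 10.2 FPKM with vehicle and fell to 2.26 FPKM with the combination. SRF, the factor that binds CArG boxes, and its partner ELK3 were the 2 genes of this list called up in the 3 inhibitor comparisons and down in both lines with Dox. They were named after their values were seen, and no share of all genes is given for this pattern, so how usual it is is not known. Their part in the levels of the members was not tested. SRF rose from 13.1 FPKM with vehicle to 34.7, 21.2 and 17.3 FPKM with SP2509, UNC0642 and both, and fell to 17.0 from 31.5 FPKM (shLSD1) and to 16.8 from 27.0 FPKM (shG9a). ELK3 rose from 4.29 to 6.96, 10.1 and 13.7 FPKM and fell to 3.66 from 6.16 FPKM and to 2.96 from 5.06 FPKM. These are mRNA levels, and the activity of the kinases was not measured.

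Of 17 genes of other AP-1 partners and related bZIP proteins, 12, 13 and 16 passed the FPKM filter, and 5, 5 and 10 were called up and 2, 4 and 5 down with SP2509, UNC0642 and both. With the combination 5 of the 10 had under 1 FPKM with vehicle, and 5 up and 5 down were left without them. With Dox, 0 were up and 4 down in the shLSD1 line, and 1 was up and 5 were down in the shG9a line. The small MAF genes MAFF and MAFK rose in all 3 inhibitor libraries, MAFF from 4.82 to 28.3, 10.9 and 38.9 FPKM and MAFK from 6.04 to 12.5, 14.7 and 37.5 FPKM. CREB5 had 0.470 FPKM with vehicle and rose to 10.1, 2.37 and 7.66 FPKM, and it stayed under 1 FPKM in the genetic arm. Other genes of the list went the other way. JDP2 fell from 11.9 FPKM with vehicle to 2.97, 1.92 and 5.78 FPKM, and ATF2, NFE2L1 and NFE2L2 were called down with UNC0642 and with both. The list medians were 0.21, 0.11 and 0.90 with SP2509, UNC0642 and both.

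Of 20 genes that are known as AP-1 targets in epithelium, 19 were listed in each table, and 13, 14 and 17 passed the FPKM filter with SP2509, UNC0642 and both. Of these, 10 were up and 3 down (CCND1, HMOX1 and VEGFA), 13 up and 0 down, and 17 up and 0 down, in that order, and the medians were 1.82, 1.23 and 2.41. Of the genes that passed, 2, 3 and 6 did so only through the treated library. Without them 8 of 11 were up with SP2509, 10 of 11 with UNC0642 and 11 of 11 with both. With shLSD1, 3 were up and 6 down (median -0.53), and in the shG9a line 1 was up and 8 were down (median -1.52), or 1 and 5 of the 9 with at least 1 FPKM in both libraries. The chemokine gene CXCL8 had 29.1 FPKM in the vehicle library, 397 under SP2509, 153 under UNC0642 and 74.4 with both. With Dox it fell in both lines, from 49.4 to 14.2 FPKM (shLSD1) and from 52.5 to 0.863 FPKM (shG9a). HBEGF, a ligand of the EGF receptor, had 2.96 FPKM with vehicle, 10.9 and 13.1 with the single inhibitors and 75.0 with both.

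**Figure D4:**
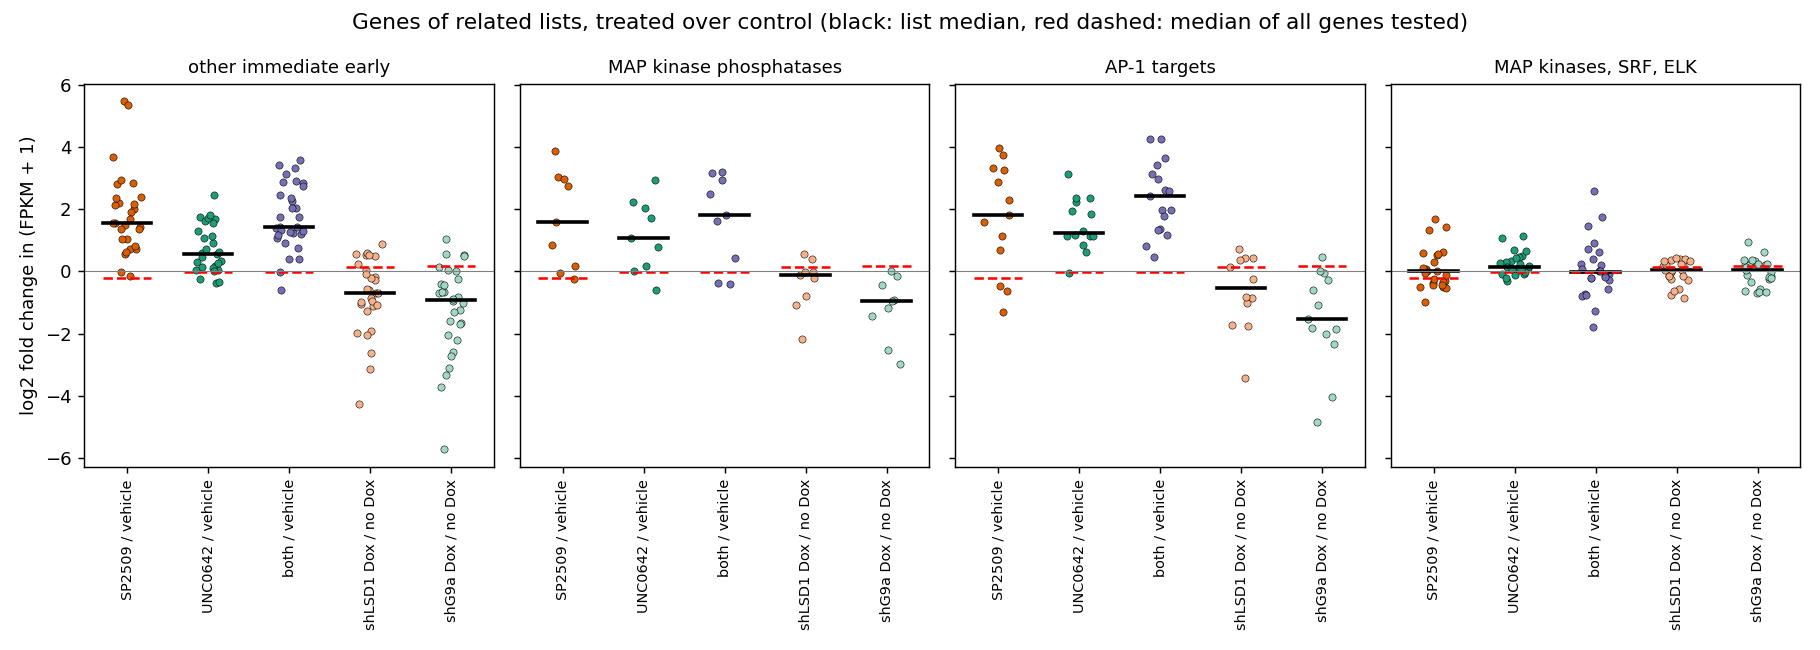
Log2 fold change in (FPKM + 1) of the genes of 4 lists that passed the FPKM filter, in the 5 comparisons. Each point is a gene, black lines are list medians and red dashed lines the medians of all genes tested. The points of the other immediate early genes have medians of 1.56, 0.57 and 1.42 with the inhibitors and -0.68 and -0.92 with Dox, while the medians of the MAP kinase, SRF and ELK genes lie between -0.02 and 0.15.

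Heat shock genes respond to handling and proteotoxic stress. Of 6 such genes, 2, 3 and 5 were called up and 1, 0 and 1 down with SP2509, UNC0642 and both, and in the shLSD1 and shG9a lines 1 and 4 were up and 3 and 2 down. HSPA1A had 7.35 FPKM in the vehicle library, 8.89 under SP2509, 24.9 under UNC0642 and 50.9 with both, and its near-identical copy HSPA1B, with which it may share reads, had 15.3, 16.6, 43.9 and 78.9 FPKM. HSPA6 had 10.8 and 8.13 FPKM in the uninduced shLSD1 and shG9a lines, and fell to 1.01 and 0.463 FPKM with Dox. Their part in the levels of the immediate early genes was not tested.

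Of the 10 members FOS had the largest log2 fold change in (FPKM + 1) in a single comparison, -4.55 in the shG9a line. Among 12567 genes with at least 1 FPKM in at least 1 library of each table, the 5 genes whose log2 fold changes in the 5 comparisons lay nearest to those of FOS (by Euclidean distance) were NDRG1 (0.893), ERRFI1 (1.02), CA9 (1.34), PGF (1.54) and STC1 (1.87). NDRG1 had log2 fold changes of 2.09, 1.95 and 1.73 with SP2509, UNC0642 and both, and of -3.04 and -3.93 in the shLSD1 and shG9a lines. In the same order, ERRFI1 had 2.46, 1.54, 2.20, -3.33 and -3.95, and CA9 had 2.40, 2.36, 2.75, -2.71 and -4.08. PGF had 0.60, 1.71, 2.25, -3.50 and -4.03, and STC1 had 1.63, 2.69, 2.85, -2.48 and -3.49.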

How the data were processed

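Per the labels and the methods of the study, total RNA of 8 Kyse510 cultures gave paired-end reads 150 bases long, low-quality and contaminated reads were removed, and the rest were mapped to GRCh38, release 87. The authors deposited FPKM values in 2 tables, one per arm. The aligner, counter and strand setting are not given in the sources used here.

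Library totals were estimated from genes with 1 exon (6727 and 5609), whose FPKM values fall on steps of 1 read. The reads of every other gene were taken at a length that made its 4 values whole reads within 0.01. A length of GENCODE release 44 or of the other table was preferred where it was at most 4 times the smallest such length. The reads summed to 99.5% to 99.7% of the totals, and 1 gene had no whole reads. Fold changes used a pseudocount of 1 on the FPKM. P-values come from two-sided exact binomial tests (scipy 1.17.1), unadjusted, and cover the reads of 2 libraries only. The read recovery and the call rule were also run on simulated libraries, which held counting error only. They cannot show how often a call errs between single cultures.

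The members, lists, thresholds and alternatives were chosen with earlier results of these data known. Genes named beside the members are the 3 of each list with the largest change (1 of them is not reported here), the knockdown targets, cell markers, the 5 genes nearest to the member that changed most, and, chosen after their values were seen, FOSL2, SRF, ELK3, genes that overlap a member and list genes that went against their list. The comparison of the uninduced lines, the family shares and the levels set across the tables were added after the data were seen.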

Additional observations from a re-analysis of the deposited data

Results flagged for a closer look

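Results were picked out where a member was called in opposite directions by the inhibitor and the knockdown of the same enzyme. The difference between the 2 effects was not tested, since each rests on 1 library against 1 control. For LSD1, the log2 fold changes in (FPKM + 1) with SP2509 and with Dox in the shLSD1 line were 1.97 and -3.58 for FOS, 3.14 and -1.53 for FOSB, 4.21 and -2.67 for FOSL1, 3.04 and -2.01 for JUN, 3.15 and -1.22 for ATF3, and 4.40 and -1.83 for DUSP1. For G9a, the values with UNC0642 and with Dox in the shG9a line were 2.12 and -4.55 for FOS, 0.72 and -1.69 for FOSB, 3.47 and -4.00 for FOSL1, 2.02 and -3.05 for JUN, 0.62 and -0.95 for JUNB, 0.77 and -0.95 for EGR1, and 2.54 and -2.72 for DUSP1. The vehicle library, which is the control of the first value of each pair, had lower levels of all these genes than the uninduced libraries, which are the control of the second.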

How the results depend on the processing

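Each result was recomputed with 0.1 in place of 1 added to the FPKM, without the FPKM filter, with the filter raised to 5 FPKM, with calls at 2-fold, after centring on genes expressed at 5 FPKM or more, with adjusted p-values (Benjamini-Hochberg), with the fewest reads that each gene's values allow, and, in the genetic arm, against the average of the uninduced libraries. No member's fold change reversed its sign under any of them, but that of EGR1 in the shLSD1 line all but vanished with centring. It was 0.1106 on the log2 scale, and the median subtracted there was 0.1104. Of the recomputed member fold changes, 356 were classed as the same and 14 as weaker. At a fold threshold of 2 the members called up numbered 4 with UNC0642, against 8 at 1.3, and 0 in the shLSD1 and the shG9a line, where IER2 was the single one at 1.3. The other 71 counts of members stayed within 1.5 times. By fold alone, 4.79% of all genes tested were at least 2-fold up with UNC0642, 3.36% in the shLSD1 line and 5.13% in the shG9a line. With a minimum of 5 FPKM, FOSB was not called with UNC0642 or in either line. The median subtracted by centring was -0.09 with SP2509, -0.004 with UNC0642, 0.04 with both, 0.11 in the shLSD1 line and 0.14 in the shG9a line, on the log2 scale. The members called in opposite directions for G9a numbered 4 at 2-fold in place of 7, an alternative chosen after the data were seen and without a share of all genes beside it. No paired analysis was possible because each condition has 1 library. Among the counts of genes of the other lists, 391 stayed within 1.5 times and 53 did not. The lowest count behind a member was 35 reads, for FOSB and FOSL1 in the shG9a library with Dox.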
